A study of Mus musculus with 24 samples.

Results

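The Dlk1-Dio3 imprinted miRNA cluster is described here in mouse hepatocytes sorted by their position in the liver lobule. Its 40 members are the mouse miRNAs of a fixed list of names, found by name among the 1881 miRNAs on the array, and all 40 were present in the files. The rule uses names alone. Of the 40 members 17 were called detected on at least 1 array, and 23 were not detected on any.

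The arrays came from 3 male C57BL/6J mice aged 3 months, fed freely and kept in a reversed light-dark cycle, with no treatment. Liver cells were freed by perfusion, cells carrying CD45 (leukocytes) or CD31 (endothelium) and dead cells were removed, and tetraploid hepatocytes were kept. From each mouse 8 populations of 50000 cells were sorted on CD73, a surface enzyme of pericentral cells, and E-cadherin, an adhesion protein of periportal cells, and numbered from zone 1 at the pericentral end to zone 8 at the periportal end. With 1 array for every zone and mouse there were 24 arrays, 3 per zone, and zones 1 to 4 and zones 5 to 8 had 12 arrays each. All values therefore concern tetraploid hepatocytes, with hepatocytes of other ploidy gated out.

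The locus is imprinted. From the maternal chromosome a series of long non-coding RNAs, Meg3, Rian and Mirg, is transcribed together with the miRNAs and snoRNAs they host, while the paternal chromosome expresses the protein-coding genes Dlk1, Rtl1 and Dio3. The miRNAs lie in several groups: those within the span of the Rtl1 gene, some of which are fully complementary to its transcript, those within Rian, and the large array from miR-379 to miR-410. They are known for high levels in the embryo, placenta and brain and for low levels in most adult tissues, liver among them.

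Mature sequences of 37 of the 40 members were matched by name in RefSeq's tables (mouse build GRCm38.p6, chromosome 12), among them 15 of the 17 detected. miR-376c-3p, miR-485-5p and miR-487b-3p were the 3 without a match. The sequences printed below carry the seed, bases 2 to 8, in capitals, under the full names with the prefix mmu- for mouse. The first set is shown because these miRNAs were detected on exactly the same 4 arrays. miR-127-3p (chr12:109592888-109592909), miR-434-3p (chr12:109594565-109594586) and miR-136-5p (chr12:109595331-109595352) lie within the span of the Rtl1 gene. miR-379-5p (chr12:109709065-109709085), both arms of miR-154 (5p arm chr12:109738438-109738459, 3p arm chr12:109738474-109738495) and miR-377-3p (chr12:109740553-109740574) lie in the miR-379 to miR-410 array, all on the plus strand.
mmu-miR-127-3p: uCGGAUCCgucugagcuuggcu
mmu-miR-434-3p: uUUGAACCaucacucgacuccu
mmu-miR-136-5p: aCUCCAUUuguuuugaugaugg
mmu-miR-379-5p: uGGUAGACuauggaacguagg
mmu-miR-154-5p: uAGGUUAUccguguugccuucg
mmu-miR-154-3p: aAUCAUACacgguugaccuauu
mmu-miR-377-3p: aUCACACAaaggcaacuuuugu
No seed is shared within this set, and the 37 members with a sequence have 37 distinct seeds. The 6 members in this set (miR-154-3p is a further miRNA of the locus and not a member) have a GC content of 36.4% to 59.1%, with a median of 46.5%. The 22 undetected members with a sequence have a median of 51.2% and a range of 23.8% to 68.2%, which spans the range of the 6. Among miRNAs on the array the seed of miR-379-5p, GGUAGAC, is found in miR-1193-5p as well.

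Both arms of miR-154 come from the hairpin Mir154 (chr12:109738433-109738498, plus strand), printed with the arms in capitals because both of its arms were detected together.
Mir154: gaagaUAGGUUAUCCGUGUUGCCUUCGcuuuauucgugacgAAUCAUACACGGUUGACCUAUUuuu

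The second set holds 2 pairs of near-identical members that differed in detection. miR-376b-3p (chr12:109723508-109723528) and miR-376a-3p (chr12:109723824-109723844) have 18 of 21 bases in common, and counted from the 5′ end of miR-376b-3p the differences are A4G, C13A and U20G. The first of these lies in the seed. miR-300-3p and miR-381-3p have 19 of 22 bases in common and differ by G4A, U21G and C22U, counted from the 5′ end of miR-300-3p.
mmu-miR-376b-3p: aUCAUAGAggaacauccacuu
mmu-miR-376a-3p: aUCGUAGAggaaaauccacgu
mmu-miR-300-3p: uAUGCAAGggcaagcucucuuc
mmu-miR-381-3p: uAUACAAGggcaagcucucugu

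The third set holds 2 members with a sequence that were detected on all 24 arrays. miR-494-3p (chr12:109715367-109715388) lies in the miR-379 to miR-410 array and miR-370-3p (chr12:109618305-109618326) within Rian.
mmu-miR-494-3p: uGAAACAUacacgggaaaccuc
mmu-miR-370-3p: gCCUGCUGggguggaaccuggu

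Levels below are scaled signals: the deposited total signal of a miRNA, divided by a reference level of its array (the 75th percentile of those 198 miRNAs that every array detected) and brought back to the signal scale by the mean of these percentiles. A miRNA is called detected as the deposited call gives it. Between 248 and 368 miRNAs were detected per array, the summed signal of an array was 57935 to 138301 intensity units, and the deposited error of a detected signal had a median of 11.2% of that signal. The number of arrays limits the precision. All arrays of a mouse lay on 1 slide, so mouse and slide are the same factor, and every slide carried zones 1 to 4 in row 1 and zones 5 to 8 in row 2, so these groups of zones and the slide row cannot be told apart. In such bulk samples fewer cells holding a miRNA and less of it per cell cannot be told apart either. All 5 hepatocyte miRNAs of a marker list, miR-122 among them, were detected on all 24 arrays, with summed scaled signals of 7859 to 13273 in zones 1 to 4 and 12658 to 17366 in zones 5 to 8.

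The members were detected in a patchy way, by mouse and by zone. Of the members 42.5% were detected on at least 1 array, against 23.8% of all miRNAs on the array. Of 72 further miRNAs listed for the locus 9.72% were detected, which makes 24 of 112 (21.4%) for both lists together. The higher share thus holds for the list of members and not for both lists. The 72 include miR-496b, undetected, whose sequence is placed on chromosome 19 and so outside the locus. Detection on all 24 arrays was reached by 3 members, miR-494-3p, miR-370-3p and miR-487b-3p, which is 7.5% against 10.5% of all miRNAs. A further 2 members were detected on 6 arrays or more, miR-376b-3p on 12 and miR-1188-3p on 6, and the other 12 on 2 to 4 arrays.

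In mouse 3 the numbers of members detected were 14, 15 and 11 in zones 1, 2 and 3, and then 3 or 4 in each of zones 4 to 8. In mouse 1 the number was 10 in zone 1 and 3 or 4 in each of zones 2 to 8. In mouse 2 it was 4 to 6 in every zone. The 4 arrays with 10 members or more, zone 1 of mouse 1 and zones 1 to 3 of mouse 3, were thus all pericentral, and mouse 2 had no such array. These 4 arrays did not detect more miRNAs in general. Outside the locus they had 277, 283, 289 and 293 detected miRNAs, within the range of 243 to 361 on the other 20 arrays. The summed signal of zone 1 of mouse 1 was 94526, the highest of that mouse, with zone 4 next at 70881. In mouse 3 zones 1 to 3 had 101436, 137270 and 116465, against 113393 to 138301 in zones 4 to 8. Whether total signal bears on the member counts was not tested. Counting a call only where the signal was at least 4 times its error, the 4 arrays had 7, 11, 12 and 10 members, and the others 3 to 6.

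**Figure D1:**
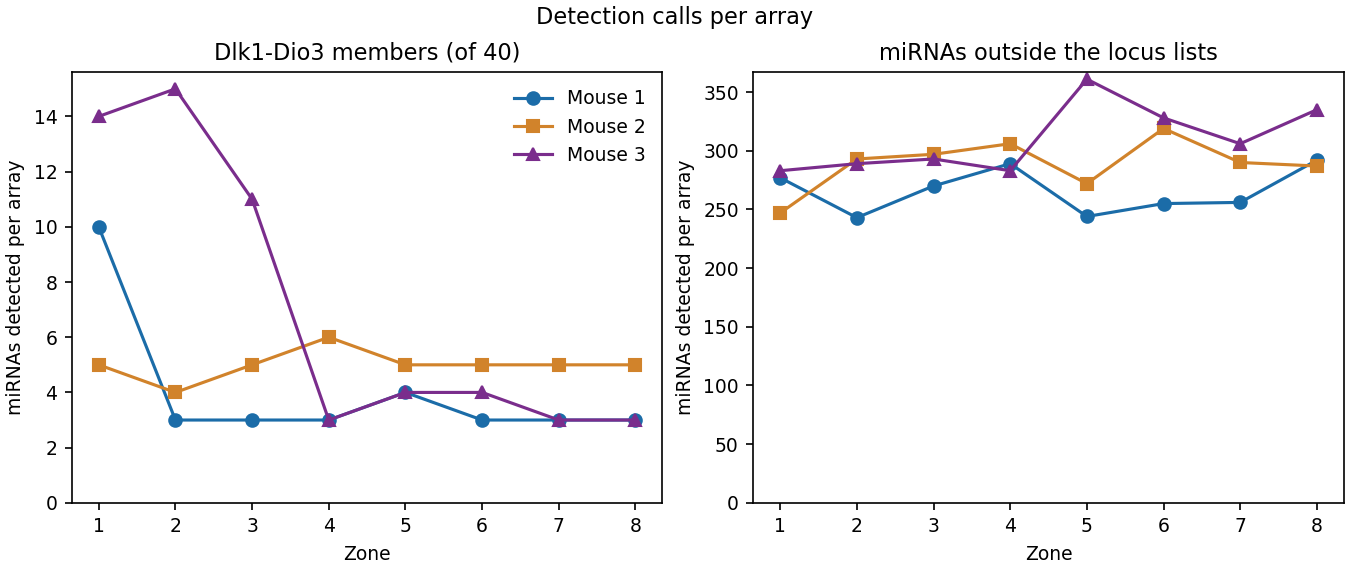
Number of members detected on each array (left, of 40) and number of miRNAs outside the locus lists detected on the same array (right), by zone, with 1 point per array and a line per mouse. Zone 1 of mouse 1 (10 members) and zones 1 to 3 of mouse 3 (14, 15 and 11) stand above the other 20 arrays at 3 to 6, while on the right the same 4 arrays, at 277 to 293, lie inside the range of the others.

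Over all members, zones 1 to 4 had 82 detections on 12 arrays and zones 5 to 8 had 47 on 12. Without the 4 arrays, zones 1 to 4 had 32 detections on 8 arrays, so the surplus of zones 1 to 4 came from these 4. Of the 12 members detected on 2 to 4 arrays, 10 were detected in zones 1 to 4 alone (83.3%), 1 in zones 5 to 8 alone and 1 in both. Of 46 miRNAs outside the locus detected on 2 to 4 arrays, 3 were detected in zones 1 to 4 alone (6.52%), 19 in zones 5 to 8 alone and 24 in both. Both miRNAs of the locus beyond the members that were detected on 2 to 4 arrays were detected in zones 1 to 4 alone. These shares rest largely on the same 4 arrays and carry no test.

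The co-detected set consists of miRNAs from both ends of the cluster. On exactly the 4 arrays, and on no other, 9 of the 1881 miRNAs were detected: 6 members (miR-127-3p, miR-434-3p, miR-136-5p, miR-379-5p, miR-154-5p and miR-377-3p), the further locus miRNAs miR-154-3p and miR-299b-5p, and miR-497a-5p from chromosome 11. Detection on some or all of these 4 arrays and nowhere else held for 15 miRNAs, of which 9 were members and 2 were other miRNAs of the locus.

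Of the members within the Rtl1 span, miR-127-3p has full complementarity to the Rtl1 transcript and is known to reduce it. Its scaled signal was 4.84 ± 0.85 (deposited error) in zone 1 of mouse 1, and 12.04 ± 1.40, 10.7 ± 1.14 and 8.11 ± 1.13 in zones 1, 2 and 3 of mouse 3. miR-434-3p, from a neighbouring hairpin, measured 2.43 in zone 1 of mouse 1 and 3.75, 5.42 and 2.62 in zones 1 to 3 of mouse 3. miR-136-5p, the third of this group, measured 3.03, and then 5.18, 3.86 and 3.37. Zones 1 and 2 of mouse 3 were the highest for each of these 3 miRNAs, and zone 1 of mouse 1 the lowest. miR-337-3p, the fourth detected member of the group, was found in mouse 3 alone, at 2.32 in zone 1 and 2.09 in zone 2.

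In the miR-379 to miR-410 array the same arrays were high. miR-379-5p, the first miRNA of that array, measured 3.38 in zone 1 of mouse 1 and 6.24, 7.42 and 4.08 in zones 1 to 3 of mouse 3. miR-154-5p measured 5.64, and then 7.25, 7.90 and 5.67. miR-377-3p measured 2.92, and then 4.67, 4.43 and 3.50. Zone 3 of mouse 3 and zone 1 of mouse 1 differed by less than the deposited error of either for each of these 3 and for miR-434-3p and miR-136-5p. The opposite arm, miR-154-3p, measured 5.17 in zone 1 of mouse 1 and 10.3, 8.71 and 7.02 in zones 1 to 3 of mouse 3, so both arms of the printed Mir154 hairpin were found on the same arrays.

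miR-299b-5p, a locus miRNA beyond the members, measured 3.61, and then 7.83, 6.08 and 3.54. Its sequence is contained whole in miR-299a-5p, from base 2 on, and miR-299a-5p is not among the miRNA names of the array. Which of them gave the signal was not tested. A further 3 members were detected on part of the 4 arrays and on no other, all in mouse 3, miR-337-3p among them. miR-300-3p measured 4.01, 3.44 and 2.96 in zones 1, 2 and 3 of mouse 3. miR-411-5p, whose gene follows that of miR-379, measured 2.33 in zone 1 and 2.38 in zone 2. miR-381-3p, which differs from miR-300-3p at the 3 positions given above, was not detected on any array.

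**Figure D2:**
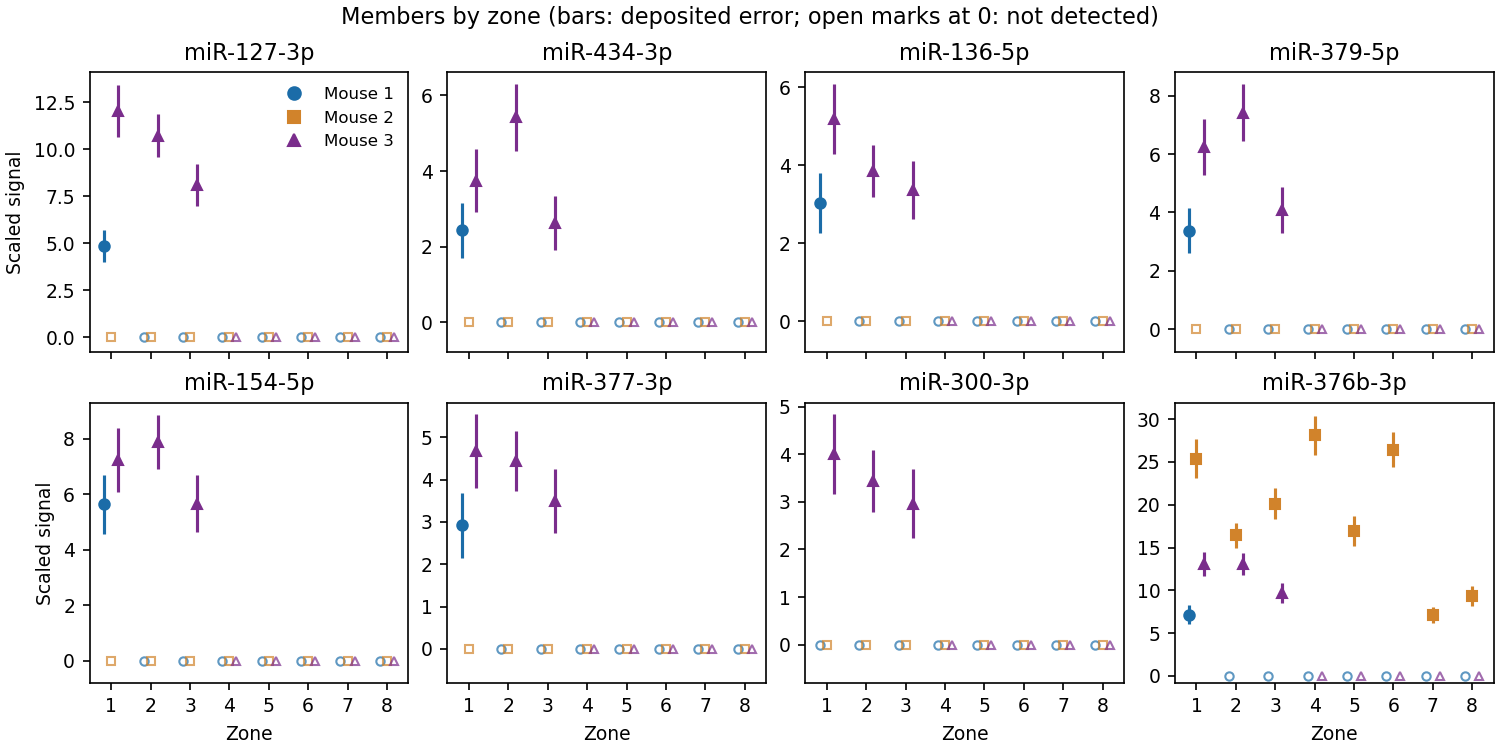
Scaled signal by zone of 8 members, with 1 point per array, the mice told apart by colour and shape, bars for the deposited error, and open marks at 0 for arrays without a detection call. miR-127-3p, miR-434-3p, miR-136-5p, miR-379-5p, miR-154-5p and miR-377-3p have filled marks in zone 1 of mouse 1 and zones 1 to 3 of mouse 3 alone, miR-300-3p in mouse 3 alone, and miR-376b-3p also in all 8 zones of mouse 2.

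On the 4 arrays, members that were not detected everywhere had a common order. For 7 of 7 such members detected on all 4, zones 1 and 2 of mouse 3 were above zone 3 of mouse 3, which was above zone 1 of mouse 1, both in scaled and in unscaled signal. The last step was smaller than the deposited error of either array for 5 of the 7, all but miR-127-3p and miR-376b-3p. Of 62 other miRNAs detected on all 4 arrays and not on all 24, 4 had this order in scaled signal (6.45%) and 6 in unscaled signal (9.68%). miR-154-3p was among the 4, while miR-299b-5p and miR-497a-5p were not. Of the 3 members detected on all 24 arrays, 0 had it. The order was read from these same members and arrays, so these shares are a description and carry no test. The ratio of zone 2 to zone 3 within mouse 3 was 1.14 to 2.07 over the 6 co-detected members, against a median of 0.925 over the 198 miRNAs detected everywhere. No spread over the 198 is given here. The lowest of these ratios, that of miR-136-5p, came from values that differed by less than either deposited error (0.67 and 0.74). The ratio of zone 2 of mouse 3 to zone 1 of mouse 1 was 1.27 to 2.23, against a median of 0.923. Between zones 2 and 1 of mouse 3 the 6 members had no common direction, with ratios of 0.744 to 1.45. The signals of the 6 were 3.28 to 9.38 times their deposited error, so all of them were dim.

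miR-376b-3p and its relatives had a wider pattern. In mouse 2 miR-376b-3p was detected in all 8 zones, with scaled signals of 25.4, 16.4, 20.1, 28.1, 16.9, 26.4, 7.07 and 9.34 from zone 1 to zone 8. In mouse 1 it was detected in zone 1 alone, at 7.15. In mouse 3 it was detected in zones 1 to 3, at 13.1, 13.1 and 9.68. In mouse 2 zones 7 and 8 were the lowest, while in mice 1 and 3 it followed the co-detected set. In zones 1 to 4 that made 8 arrays of 12 with a detection, and in zones 5 to 8 it made 4 of 12, the latter all of mouse 2.

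miR-376a-3p was detected in zones 1 and 4 of mouse 2, at 6.17 and 6.40, and in zones 1 and 2 of mouse 3, at 2.79 and 2.76. In mouse 2 these were among the 3 zones with the highest miR-376b-3p, but in zone 6, with miR-376b-3p at 26.4, miR-376a-3p was not detected. Whether the printed likeness of the sequences lets 1 of them give signal in the other's probes was not tested. miR-376c-3p was detected on 2 arrays, at 15.0 in zone 5 of mouse 1 and at 0.882 in zone 2 of mouse 3. These 2 values lie far apart and come from zones on both sides of the middle of the axis. The value of 0.882 was the weakest detected signal of its array and lies below the floor of 1.12 used in the fits. The count of 15 members in zone 2 of mouse 3 includes it.

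A pair of members was confined to arrays of a single mouse outside the co-detected set. miR-1188-3p, within Rian, was detected in zones 3 to 8 of mouse 2 only, at 6.93, 7.53, 2.93, 5.31, 3.65 and 4.25. Zones 3 and 4 were its highest. miR-134-5p, known for limiting the growth of dendritic spines in neurons, was detected in zones 5 and 6 of mouse 3, at 3.56 and 2.58, and was the only member found in zones 5 to 8 alone.

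**Figure D3:**
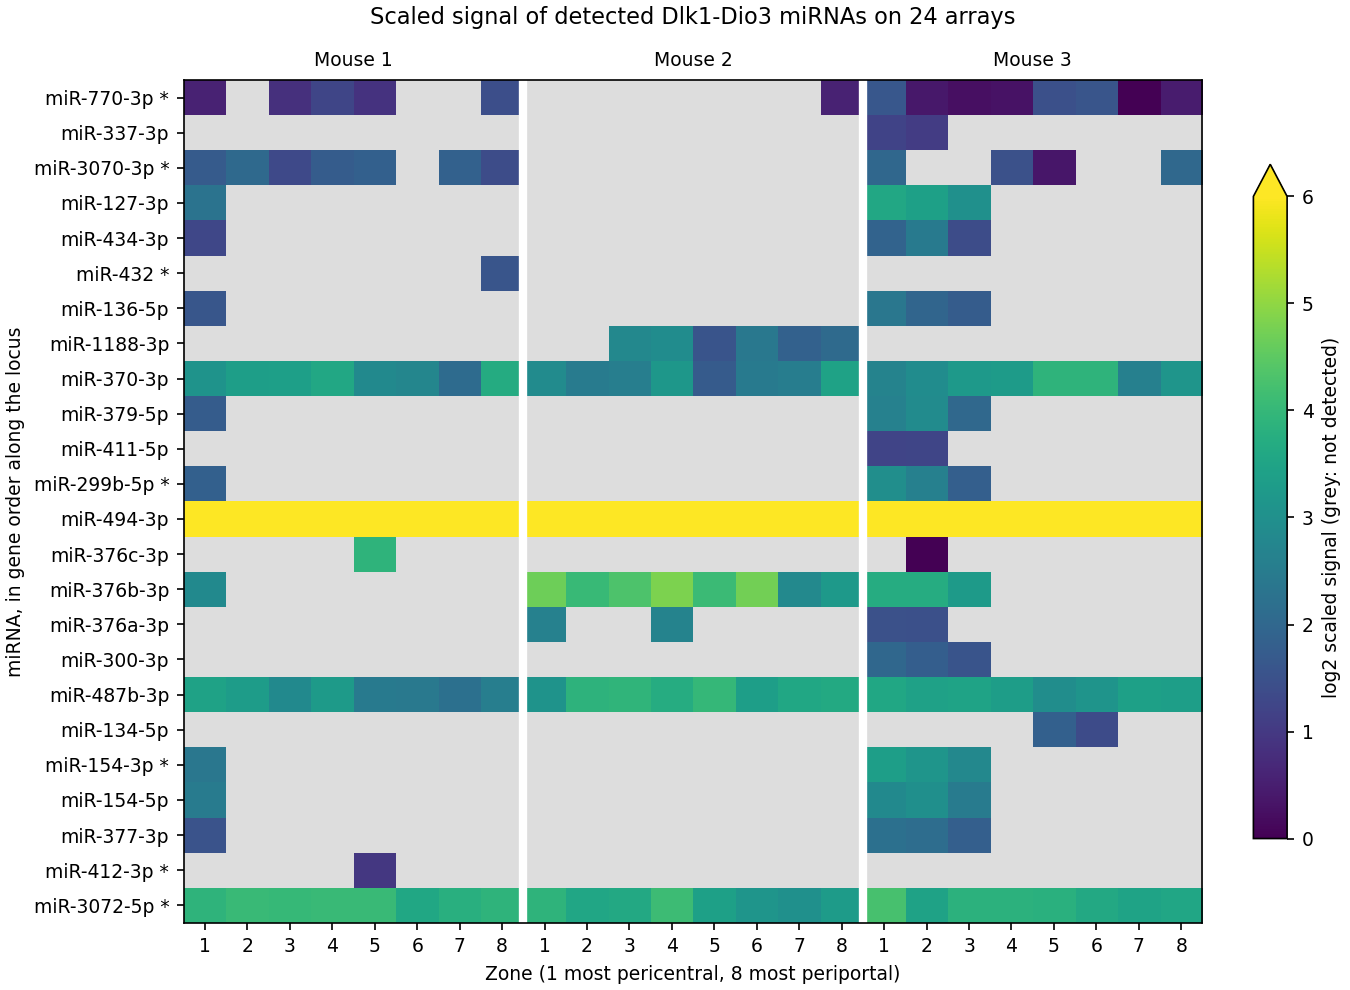
Log2 scaled signal of the 17 detected members and of 7 further detected miRNAs of the locus (marked with a star), in gene order from top to bottom, on the 24 arrays (columns, zones 1 to 8 within each mouse). Grey cells were not detected and colours end at 6 on the log2 scale, above which miR-494-3p lies on every array. The block of coloured cells in zone 1 of mouse 1 and zones 1 to 3 of mouse 3 holds miRNAs from miR-127-3p near the top to miR-377-3p near the bottom.

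The 3 members detected on all 24 arrays did not have this pattern. miR-494-3p had a lowest, median and highest scaled signal of 269, 355 and 671 in zones 1 to 4, and of 201, 421 and 1177 in zones 5 to 8. These ranges overlapped. The mice went different ways: the log2 difference of zones 5 to 8 minus zones 1 to 4 was 0.80 in mouse 1, -0.45 in mouse 2 and 0.24 in mouse 3. By zone the mean log2 signal was 8.37 ± 0.13 (SD, n = 3) in zone 1 and 8.92 ± 1.13 in zone 8, a difference smaller than the spread in zone 8.

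miR-370-3p had a lowest, median and highest scaled signal of 5.66, 8.80 and 12.2 in zones 1 to 4, and of 3.28, 7.01 and 15.0 in zones 5 to 8. The wider range in zones 5 to 8 enclosed that of zones 1 to 4. In mouse 3 zones 5 and 6 were its highest (15.0 and 14.9), and in mouse 2 zone 5 was its lowest (3.28).

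miR-487b-3p had a lowest, median and highest scaled signal of 7.23, 10.9 and 15.3 in zones 1 to 4, and of 4.64, 9.44 and 15.9 in zones 5 to 8. The log2 difference of zones 5 to 8 minus zones 1 to 4 was -0.80 in mouse 1, -0.01 in mouse 2 and -0.25 in mouse 3. Most of the difference thus lay in mouse 1, where zones 5 to 8 measured 5.57, 5.35, 4.64 and 5.96 and zones 1 to 4 measured 11.0, 9.94, 7.23 and 9.72, without overlap.

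**Figure D4:**
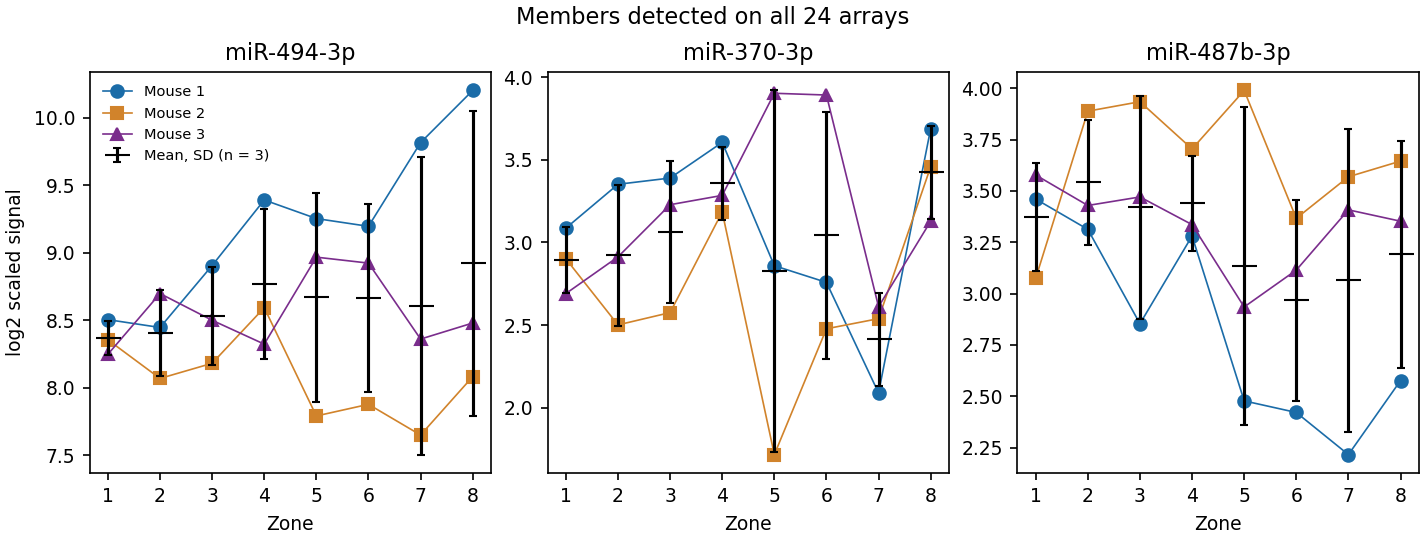
Log2 scaled signal by zone of the 3 members detected on all 24 arrays, with a line per mouse and the mean ± SD (n = 3 mice) of each zone in black. The mice diverge toward zone 8 for miR-494-3p (8.37 ± 0.13 in zone 1, 8.92 ± 1.13 in zone 8), and mouse 1 lies lowest in zones 5 to 8 for miR-487b-3p.

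The 23 members not detected on any array came from every stretch of the locus. Within the span that RefSeq gives for the Rtl1 gene, which starts inside Meg3, 5 of 9 members were undetected: miR-673-5p, miR-540-3p, miR-665-3p, miR-431-5p and miR-433-3p. Within Rian it was 1 of 3, miR-341-3p. From miR-379 on, it was 17 of 28: miR-380-5p, miR-323-3p, miR-758-3p, miR-329-3p, miR-666-5p, miR-543-3p, miR-495-3p, miR-667-3p, miR-381-3p, miR-539-5p, miR-382-5p, miR-668-3p, miR-485-5p, miR-541-5p, miR-409-3p, miR-369-3p and miR-410-3p. Among them are gene neighbours of co-detected members. The gene of miR-433-3p lies next to that of miR-127-3p, and the gene of miR-541-5p next to that of miR-377-3p. The arrays give no level for these, since an undetected miRNA is deposited at a fixed signal of 0.1.

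Of 72 further miRNAs listed for the locus, such as the other arms of the same hairpins, 7 were detected and 65 were not. The undetected ones include miR-496b, which is placed on chromosome 19. Of these 7, miR-154-3p and miR-299b-5p belonged to the co-detected set, and miR-412-3p and miR-432 were detected on 1 array each, in zones 5 and 8 of mouse 1. miR-770-3p, hosted by Meg3, was detected on 14 arrays, 8 of them of mouse 3, 5 of mouse 1 and 1 of mouse 2. miR-3070-3p was detected on 11 arrays, of mice 1 and 3 only. miR-3072-5p was detected on all 24, at a lowest, median and highest scaled signal of 10.9, 15.0 and 19.0 in zones 1 to 4 and of 8.09, 11.8 and 16.8 in zones 5 to 8. Of 5 more miRNAs placed in the locus by gene position, miR-1906 alone was detected, on all 24 arrays, and a second gene for it lies on the X chromosome.

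Detection was tested between zones 1 to 4 and zones 5 to 8 with an exact permutation test within mice, two-sided, with Benjamini-Hochberg adjustment over the 250 miRNAs detected on some but not all arrays. At the threshold of 0.05, 0 of 14 members passed, against 7 of 250 miRNAs (2.8%) more often detected in zones 5 to 8 and 0 of 250 (0%) in zones 1 to 4. With its detections per mouse, no member could have reached an exact p below 0.0714, even before adjustment. The 0 of 14 was thus fixed in advance and carries no result about the members. Without adjustment 16 of 250 miRNAs passed, 2 of them more often detected in zones 1 to 4, and again 0 of the members. Fisher's exact test over the 12 and 12 arrays called the same numbers, 7 miRNAs and 0 members. For miR-127-3p, as for the other 5 co-detected members and miR-376b-3p, the exact p was 0.0714 (adjusted 0.616), which is the smallest that detections in such numbers per mouse can give. For miR-376a-3p the exact p was 0.0918 (adjusted 0.717), and for miR-300-3p it was 0.143 (adjusted 0.794).

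Signals were tested with limma on the log2 scale for the 339 miRNAs detected on at least 6 arrays, with undetected values raised to a floor of 1.12. Between zones 5 to 8 and zones 1 to 4, 0 of 5 members passed, against 39 higher (11.5%) and 26 lower (7.67%) of the 339. Without scaling the split was 32 higher (9.44%) and 8 lower (2.36%), and with scaling to the summed signal it was 40 (11.8%) and 13 (3.83%), with 0 of 5 members in each. The log2 difference of miR-376b-3p was -1.32 ± 0.73 (SE, limma adjusted p = 0.230), from means of 2.67 in zones 1 to 4 and 1.35 in zones 5 to 8. That of miR-487b-3p was -0.35 ± 0.18 (limma adjusted p = 0.188), from means of 3.44 and 3.09. The other 3 were nearer to 0, with 0.20 ± 0.25 for miR-494-3p, 0.16 ± 0.39 for miR-1188-3p and -0.13 ± 0.22 for miR-370-3p. The values of miR-376b-3p and miR-1188-3p contain undetected arrays at the floor and are not bounds, and with a floor 4 times lower that of miR-376b-3p was -1.99. Without mouse 2, and with no block, miR-487b-3p passed (-0.53 ± 0.17, limma adjusted p = 0.0476), against 7.08% lower and 10.3% higher of all miRNAs.

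The 8 populations of a mouse come from the same animal, and a fit with the mouse as a block changed 2 of these calls. With the block, 2 of 5 members were lower in zones 5 to 8, against 57 of 339 miRNAs (16.8%), and 0 of 5 were higher, against 48 (14.2%). miR-376b-3p was lower by -1.32 ± 0.40 (limma adjusted p = 0.0149) and miR-487b-3p by -0.35 ± 0.12 (limma adjusted p = 0.0295). Signs were the same in all 3 mice for both. For miR-376b-3p the differences were -0.67, -0.75 and -2.55 in mice 1, 2 and 3, with 1 detected array in mouse 1. For miR-487b-3p the value in mouse 2 was near 0, at -0.01. All limma fits here, with or without the block and for the slope, count the zones of a mouse as separate arrays. With the block, errors and p describe the spread of arrays around the mouse means. Without it they describe the spread over all arrays, differences between mice included. Neither describes the spread of the difference over 3 animals. For miR-376b-3p the call was lost without the 4 arrays, where the difference was -0.33 ± 0.20 (limma adjusted p = 0.234). It was lost without mouse 3 at -0.71 ± 0.37 (0.169). Without mouse 2 the difference was -1.61 ± 0.57. There miR-376b-3p was detected on the 4 arrays alone, and it met the filter only through mouse 2. The sign of that difference was thus fixed, and no call for it is given. For miR-487b-3p the call was lost without mouse 1, where the difference was -0.13 ± 0.13 (limma adjusted p = 0.504). It was lost at differences nearer to the full one without the 4 arrays (-0.30 ± 0.14, 0.127) and without mouse 3 (-0.41 ± 0.17, 0.0932). On all arrays it was lost with no scaling (-0.25 ± 0.16, 0.334), the summed signal (-0.28 ± 0.11, 0.0533) and quantile normalization (-0.24 ± 0.13, 0.175).

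**Figure D5:**
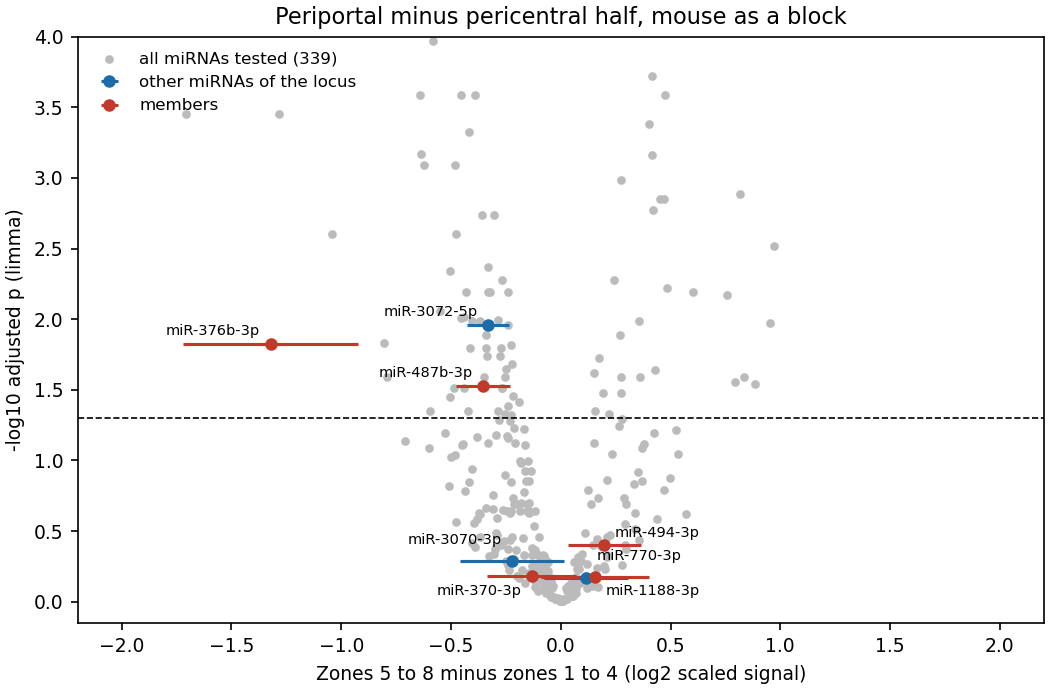
Log2 difference of zones 5 to 8 minus zones 1 to 4 for the 339 miRNAs tested with the mouse as a block (x axis, with bars of 1 SE for named miRNAs) against the −log10 of limma's adjusted p (y axis), with the threshold of 0.05 as a dashed line. miR-376b-3p (-1.32) and miR-487b-3p (-0.35) lie left of 0 above the line, the other 3 members tested lie below it, and 19 miRNAs fall outside the frame.

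The slope on the zone number, a rank and not a distance, was fitted next. In the fit without a block, 0 of 5 members passed, against 35 higher (10.3%) and 22 lower (6.49%) of 339 miRNAs. miR-376b-3p had a log2 slope of -0.34 ± 0.15 per zone (SE, limma adjusted p = 0.134). With the mouse as a block its slope was -0.34 ± 0.08 (limma adjusted p = 0.00236), the only member of 5 to pass, against 56 lower miRNAs (16.5%) and 49 higher (14.5%). That call was lost without the 4 arrays (-0.10 ± 0.05 per zone, limma adjusted p = 0.125) and without mouse 3 (-0.20 ± 0.07, 0.0582). Without mouse 2, miR-376b-3p was detected on the 4 arrays alone, and it met the filter only through mouse 2. With its other values at the floor the direction of its slope was fixed, so no call for it is given. That slope was -0.42 ± 0.12 per zone with no block and -0.42 ± 0.11 with the block. Without mouse 2 and with no block no other member passed, against 7.37% lower and 8.85% higher of all miRNAs. Without mouse 2 and with the block miR-487b-3p was lower (-0.10 ± 0.03, limma adjusted p = 0.0222), against 13.9% of all miRNAs. In the same fit miR-494-3p was higher (0.13 ± 0.04, limma adjusted p = 0.0262), against 11.5%. On all arrays with the block neither passed. There the slope was -0.063 for miR-487b-3p (limma adjusted p = 0.0959) and 0.062 for miR-494-3p (0.195). Without mouse 1 and with no block the slope of miR-494-3p was -0.023.

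The filter at 6 arrays leaves out the 12 members detected on 2 to 4 arrays. With it lowered to 1 array the co-detected members enter a fit only through the pericentral arrays that detect them, with the other 20 values at the floor, so the direction of their slopes is fixed by the filter and no call from it is given.

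Among the further miRNAs of the locus miR-3072-5p was lower in zones 5 to 8, by -0.33 ± 0.12 on the log2 scale (limma adjusted p = 0.0485), and with the mouse as a block by -0.33 ± 0.10 (0.0109). The call without a block was lost when mouse 1 (0.0609), mouse 2 (0.239) or mouse 3 (0.109) was left out, with no scaling (0.387) and with the summed signal (0.418).

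Apart from the endothelial miR-126a-3p, markers of other cells were mostly undetected, on the 4 arrays as elsewhere. Of lists of such miRNAs, 0 of 7 for leukocytes, 0 of 8 for stellate cells and fibroblasts, 0 of 5 for erythroid cells, 0 of 6 for neurons and 0 of 4 for muscle were detected on any array, so miR-142a-3p, miR-223-3p, miR-143-3p, miR-451a, miR-124-3p and miR-1a-3p were undetected throughout. Of 6 biliary and other epithelial miRNAs, miR-200b-3p was detected on 1 array, zone 8 of mouse 3, at 1.88. In the endothelial list 1 of 4 was detected, miR-126a-3p, on 7 arrays of zones 1 to 4 and on 9 of zones 5 to 8. Every array of mouse 1 detected it, at 4.08 to 11.4. The summed signal of the list was 0 to 11.0 in zones 1 to 4 and 0 to 11.4 in zones 5 to 8. On the 4 arrays miR-126a-3p measured 6.74 in zone 1 of mouse 1 and was not detected in zones 1 to 3 of mouse 3.

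Outside the locus the miRNAs with detection most like the number of members per array were ranked by Pearson's r over the 24 arrays, among the 193 miRNAs outside the locus that were detected on at least 2 arrays and not on all. These arrays share mice and slides. miR-497a-5p stood first (r = 0.934), at 2.94 in zone 1 of mouse 1 and 3.49, 3.21 and 2.48 in zones 1 to 3 of mouse 3, and not detected elsewhere. The next were miR-532-5p (r = 0.586), miR-551b-5p (0.420), miR-1892 (0.413), miR-295-5p (0.374) and miR-210-3p (0.363, level with miR-7687-3p). miR-195a-5p, whose gene lies beside that of miR-497a, was looked at after its neighbour's values were seen. It was detected on 14 arrays, and its highest values were those of the 4 arrays, at 4.99, 6.52, 5.19 and 4.71.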

How the data were processed

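RNA of the 24 populations was measured on Agilent 1-colour miRNA arrays with Cy3 as the dye, as the labels state. The submitters deposited an intensity for every miRNA (total gene signal, linear) with its error, and their processing notes name Agilent Feature Extraction, whose version is not given in the sources used here. Detection calls of 1 or 0 are another deposited column, per the file headers. Undetected miRNAs were deposited at 0.1 with an error of 1. Each deposited value sums the probes of a miRNA, so single probes could not be compared.

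After removal of 21 control sequences, signals were scaled as described, and for the fits they were raised to a floor of 1.12, where the typical array has its weakest detected miRNA, before log2 was taken. Per-array values in the text are scaled but not floored. limma 3.58.1 (lmFit, eBayes, R 4.3.3) was run, two-sided, on the 339 miRNAs with a detection call on at least 6 arrays, with Benjamini-Hochberg adjustment over all of them and a threshold of 0.05. Detection was tested by exact permutation within mice. The scripts were tested on simulated data. Groups came from the labels. Replicate numbers are the mouse numbers and pair the arrays, since 8 populations came from each animal. Deviations from the zone means correlated at a median of 0.610 for pairs of arrays from 1 mouse, and at 0.254 for the lowest pair. No 2 arrays held identical values.

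The members, marker lists and tests were chosen with earlier results of these data known. Every detected member is named, the undetected ones are listed, and the 6 most alike miRNAs outside the locus were picked by Pearson's r with the number of members detected. Alternatives were other scalings, filters, floors, detection rules, eBayes with trend and robust, the mouse as a block and leaving out each mouse. Leaving out the 4 arrays with over 6 members, the order described over these arrays, and most combinations of the block with other settings were chosen after seeing the data. Plots were made in Python 3.11.15 with matplotlib 3.10.9.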

Additional observations from a re-analysis of the deposited data

How the results depend on the processing

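Most members are near the limit of detection, and zone, slide row, mouse and slide are tied as given above. The count of lower miRNAs moved most. For zones 5 to 8 against zones 1 to 4 it was 26, and 8 with the 75th percentile over all miRNAs (the same on every array, so no scaling), 13 with the summed signal, 57 with the mouse as replicate block, 52 with the block and detection on at least 1 array, and 42 with the block without the 4 arrays. Without 1 mouse it was 10 to 24. The count of higher miRNAs was 39, and 25 with detection on all 24 arrays required. Without 1 mouse it was 31 to 35. For the slope the count of lower miRNAs was 22, and 3 with no scaling, 6 with the summed signal, 56 with the block, 65 with the block and detection on at least 1 array, and 37 with the block without the 4 arrays. Without 1 mouse it was 9 to 25, and that of higher miRNAs 24 to 30. The detection test called 7 miRNAs, 4 without any 1 mouse and 4 without the 4 arrays, and detections of members in zones 1 to 4 went from 82 to 32 without them. Members with small values changed sign: for zones 5 to 8 against zones 1 to 4 miR-1188-3p to -0.0675 without the 4 arrays, miR-370-3p to 0.0558 without mouse 1 (range without 1 mouse -0.377 to 0.0558), and miR-494-3p to -0.0732 with quantile normalization and -0.104 without mouse 1 (range -0.104 to 0.522). For the slope they were miR-370-3p, at -0.00344 without mouse 2 and -0.0144 without mouse 3 (range -0.0144 to 0.0387), and miR-494-3p, at -0.023 without mouse 1 (range -0.023 to 0.127). None of the values with a changed sign passed the test. Fewer arrays, fewer miRNAs tested or the other scaling are part of how these settings are built, and beyond that the cause was not tested. miR-1188-3p has no value without mouse 2, where all its arrays are at the floor. On all arrays the replicate block changed calls of members only as given for miR-376b-3p and miR-487b-3p, among the 5 members tested.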
